A study of Brachypodium distachyon with 35 samples.

Results

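The root of Brachypodium distachyon, a small grass used as a model for cereals, was compared with the stem, leaf and spikelet for the transcripts of 96 genes of the basic leucine zipper family (BdbZIP). The genes were grouped in lists of homologues, chosen with earlier results of these data known. The TGA list held the most genes at least 2-fold higher in root relative to the median BdbZIP gene, namely 5 of 14. The other 9 were within 2-fold. Over all 96 genes, these 5 included, 13 (13.5%) were at least 2-fold higher. Relative to the reference gene BdGAPD, against which most of the family was lower in root, 2 of the 14 were at least 2-fold higher and 8 at least 2-fold lower. On the first of these scales BdbZIP81 was 10.9-fold higher, BdbZIP85 8.09-fold and BdbZIP80 5.39-fold, and these were the 3 genes that exceeded each of the other organs by 2-fold or more. On the opposite side BdbZIP75 was 5.97-fold lower in root and was the 1 gene below each of the other organs by that much.

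The comparison used 4 of the 35 samples of the series, namely root, stem, leaf and spikelet, each with 1 sample. No stress or hormone treatment is named for them. Plants of the line Bd21-3 were raised on agar medium with sugar under long days, and the labels give an age of 20 days for root, stem and leaf and 40 days for spikelet. The methods of the study state younger ages for both and call the spikelets early, so organ and age cannot be told apart for the spikelet. The method was quantitative real-time PCR (qPCR). Its readout, Ct, is the number of cycles needed to detect the product, so 1 cycle fewer means roughly 2-fold more starting cDNA. With 1 sample per organ no test between organs was possible, and all differences below are descriptions of these 4 samples. The table holds BdbZIP genes and 1 reference gene, so no marker of an organ was measured and the organ labels were not checked against the data. The organs are mixtures of cells, and fewer cells of a type and less RNA per cell cannot be told apart.

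The bZIP proteins bind DNA through a basic region and pair with each other through a leucine zipper. Work in Arabidopsis has given roles to several branches of the family. TGA factors act with salicylic acid signalling in defence and some of them in the nitrate response of roots. ABI5 and the ABFs carry abscisic acid responses, and HY5 promotes the development of seedlings in the light. Other branches hold membrane-bound stress sensors and regulators of zinc uptake.

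Levels were taken in 2 ways. The first was the difference of Ct from BdGAPD, the gene of the glycolytic enzyme glyceraldehyde-3-phosphate dehydrogenase, with the sign turned (−ΔCT). The second was the Ct relative to the median of the 96 BdbZIP genes in the same sample, again with the sign turned, and is called the centred level. Both are on the log2 scale. For each gene the root value minus the mean of stem, leaf and spikelet was the root difference. The root differences on the 2 scales differ by the same constant for every gene, so the order of the genes is the same on both. The counts past a threshold, the sign of a difference and the order of the organs within a gene depend on the choice. Levels of different genes were not set against each other, since each has its own primers and product.

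BdGAPD had a Ct of 16.54 in root, with 16.85, 19.11 and 17.20 in stem, leaf and spikelet. Root was the lowest of the 4, by 0.31 from stem, and leaf stood apart as the highest. The median BdbZIP gene had a Ct of 26.50 in root, with 25.70, 26.49 and 26.37 in stem, leaf and spikelet, so root and leaf were alike. Root therefore had 1.18 cycles less than the mean of the others for BdGAPD and 0.31 cycles more for the median BdbZIP gene. These sum to the 1.49 that separates the scales. Among the 30 distinct seedling samples of the series the Ct of BdGAPD ran from 14.73 to 23.24, a range that holds all 4 organs.

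**Figure D1:**
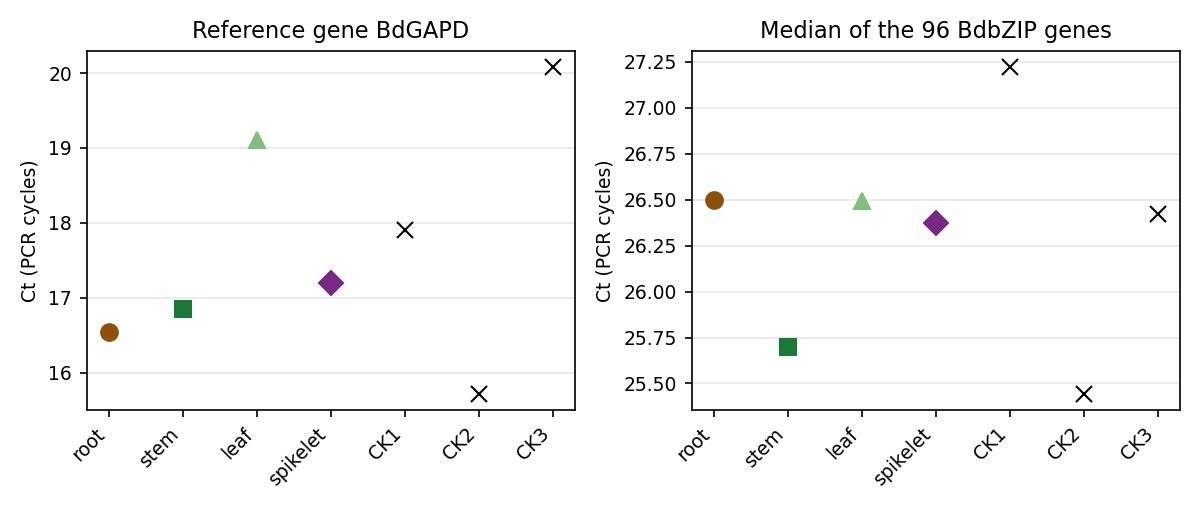
Ct of BdGAPD (left) and median Ct of the 96 BdbZIP genes (right), in PCR cycles, in the 4 organs and the 3 untreated seedling samples CK1, CK2 and CK3, 1 point per sample. For BdGAPD the organs run from 16.54 in root to 19.11 in leaf, while the median BdbZIP gene lies between 25.70 and 26.50.

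On the −ΔCT scale the BdbZIP genes were lower in root nearly throughout. The median root difference was -1.645, 78 of 96 genes (81.2%) were at least 2-fold lower and 2 genes (2.08%) at least 2-fold higher. In 77 genes root lay below all 3 other organs, and in 90 the difference was below 0. The 2 genes at least 2-fold higher were BdbZIP81 at 1.95 and BdbZIP85 at 1.52, and in both root lay above all other organs. The others with a difference above 0 were BdbZIP80, BdbZIP36, BdbZIP61 and BdbZIP4, at 0.94, 0.59, 0.56 and 0.03. The low median moved with the organs included and with the reference. It was -1.08 without leaf, whose BdGAPD Ct was the highest. With the 10 BdbZIP genes that varied least over the other samples as the reference it was 0.23. Those 10 genes belong to the family and were picked on centred levels, so a family-wide difference largely drops out with them.

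On the centred scale the root differences had a median of -0.15 and an SD of 0.91 over genes, and lay between -2.58 and 3.45. At least 2-fold higher in root were 13 genes (13.5%), and at least 2-fold lower 6 genes (6.25%). The remaining 77 lay within 2-fold. In 19 genes (19.8%) root was above all other organs and in 29 (30.2%) below all of them. Nearest to the upper threshold were BdbZIP95 inside at 1.10 and BdbZIP58 outside at 0.92, and nearest to the lower one BdbZIP63 inside at -1.05 and BdbZIP31 outside at -0.93. Centring on those 10 least variable genes raised every root difference by 0.38. The sign of any centred value between -0.38 and 0 depends on that choice, and with it 2 genes were at least 2-fold lower, BdbZIP75 and BdbZIP13. Of those 10 genes, 5 were themselves below all other organs in root, among them BdbZIP77 and BdbZIP79.

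**Figure D2:**
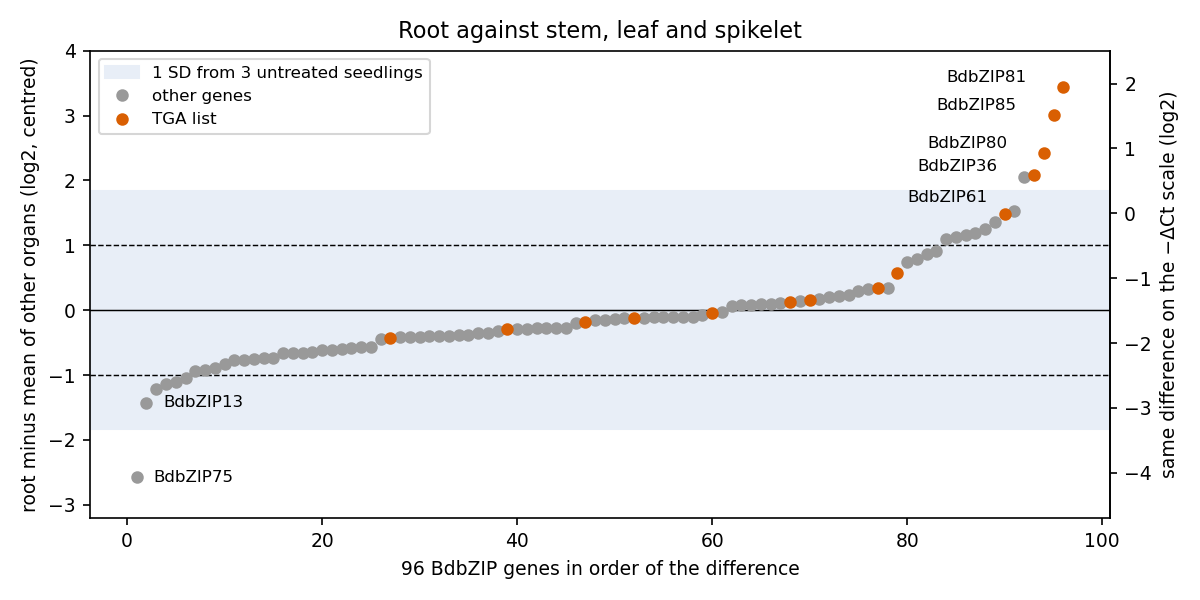
Root minus the mean of stem, leaf and spikelet for each of the 96 BdbZIP genes, in order of size, as centred log2 values (left axis) and as −ΔCT values (right axis), with genes of the TGA list in orange. Dashed lines mark 2-fold on the centred scale and the band is 1 SD of such a difference from 3 untreated seedling samples, which 5 genes exceed upward and 1 downward.

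Each organ was set against the other 3 in the same way. On the centred scale stem had 8 genes at least 2-fold higher and 1 lower, leaf 8 and 15, and spikelet 13 and 8, beside 13 and 6 for root. The SD of the differences over genes was 1.20 for leaf, 0.91 for root, 0.74 for spikelet and 0.61 for stem, so leaf stood farther from the other organs than root did. Taken organ by organ, root differed least from stem, with an SD of 0.82 over genes, then from spikelet with 0.99, and most from leaf with 1.42. Root was at least 2-fold higher than stem in 6 genes, than leaf in 13 and than spikelet in 11. It was at least 2-fold lower than stem in 8 genes, than leaf in 13 and than spikelet in 9.

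The error of a root difference can be judged from 2 sources, neither of which repeats an organ. The first is 8 pairs of genes that the primer list gives with identical primers, so that both wells amplify the same product. The root differences of BdbZIP41 and BdbZIP42 were 1.13 and 1.25, those of BdbZIP94 and BdbZIP95 1.19 and 1.10, and those of BdbZIP22 and BdbZIP27 0.34 and 0.30. BdbZIP78 and BdbZIP79 gave -0.77 and -0.74, BdbZIP50 and BdbZIP51 -0.62 and -0.58, BdbZIP48 and BdbZIP49 -0.12 and -0.19, and BdbZIP8 and BdbZIP9 -0.03 and -0.11. The widest pair was BdbZIP32 and BdbZIP33 at -0.16 and 0.17. All but this last pair had both wells on the same side of 0. The pairs gave an SD of 0.09 for a root difference, which covers the wells but not the cDNA, the plants or the reference.

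Calculated from the Ct difference of each pair in each organ, rather than from the root differences, the same SD was 0.27, and in the 30 distinct seedling samples it was 0.95. Within the organs BdbZIP41 and BdbZIP42 varied most, with a Ct difference between -1.12 and 0.37. BdbZIP50 and BdbZIP51 kept a mean Ct difference of -1.32 although their primers are listed as the same.

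**Figure D3:**
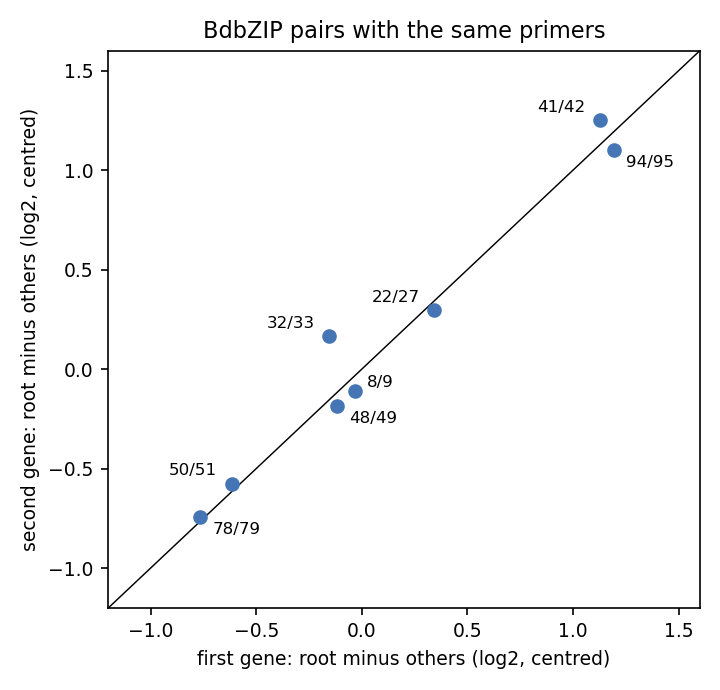
Root difference (log2, centred) of the second gene against the first for the 8 pairs of BdbZIP genes with identical primers, labelled by their numbers, with the line of equal values. The values of a pair differ by at most 0.32, the largest difference being that of BdbZIP32 and BdbZIP33.

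The second source is the 3 untreated seedling samples CK1, CK2 and CK3, which served as controls of different treatments and which share 1 description. Their pooled SD, scaled to a root difference, was 1.84, and 0.85 without CK3. The labels do not say whether these samples differ in plants or runs, so what this SD holds beyond the wells is not known. Beyond 1.84 lay 6 of the 96 root differences, 5 upward (BdbZIP81, BdbZIP85, BdbZIP80, BdbZIP36 and BdbZIP61) and 1 downward (BdbZIP75), and none lay beyond 2 such SDs. The other 13 genes past 2-fold were within 1 such SD. With the SD of 0.85 without CK3, 24 of the 96 root differences lay beyond 1 SD, and the same 6 lay beyond 2. The 19 genes past 2-fold are among the 24 by definition, since 2-fold is 1 on the log2 scale. Set against each gene's own seedling SD, scaled in the same way, 12 of the 19 lay beyond it. Those 19 were picked for a large difference, so this count is no test of them.

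The TGA list, drawn from the homologues that the study lists, had the widest upward differences. Its median centred root difference was 0.25, against -0.15 over all 96 genes. On this scale 5 of its 14 genes were at least 2-fold higher and none at least 2-fold lower, beside 13.5% and 6.25% over all genes. On the −ΔCT scale its median was -1.24, with 2 genes at least 2-fold higher and 8 lower, beside 2.08% and 81.2% over all genes. On the centred scale root was above all other organs in 7 of the 14 and below all in 2, beside 19.8% and 30.2% over all genes. In 2 of those 7 the gap to the next organ was small, 0.21 in BdbZIP5 and 0.23 in BdbZIP24. Homology was judged by sequence, and no function has been shown here for these genes in Brachypodium.

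BdbZIP81 (bradi4g27100) had a Ct of 25.81 in root, with 28.02, 30.40 and 28.41 in stem, leaf and spikelet. Root was earliest, leaf latest, and stem and spikelet were close to each other. The centred levels were 0.69, -2.32, -3.91 and -2.04, a root difference of 3.45. The 3 untreated seedling samples lay between -3.59 and -0.12, all below root. Over the 34 distinct samples of the series, a pair with identical Ct counted as 1, root ranked second for this gene, after seedlings given H2O2 for the shorter time.

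BdbZIP85 (bradi4g33740) had a Ct of 27.38 in root, with 28.50, 31.71 and 30.04 in stem, leaf and spikelet. By Ct the order of the organs was that of BdbZIP81, with stem nearer to root. The centred levels were -0.88, -2.80, -5.22 and -3.67, a root difference of 3.02, and root again ranked second of the 34 samples after the same H2O2 sample. The untreated seedlings lay between -3.62 and -1.40.

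BdbZIP80 (bradi4g26670) had a Ct of 25.39 in root, with 26.66, 27.51 and 28.35 in stem, leaf and spikelet. Here stem and leaf were nearly level after centring and spikelet was lowest. The centred levels were 1.11, -0.96, -1.02 and -1.98, a root difference of 2.43. After centring, root was the highest of the 34 distinct samples, and the next, seedlings after the shorter cold treatment, was at 0.02. On the −ΔCT scale root was at -8.85, with -9.81, -8.40 and -11.15 in stem, leaf and spikelet, so leaf was above root.

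BdbZIP36 (bradi2g23890) showed a split, by Ct and after centring, between root and stem on 1 side and leaf and spikelet on the other. Its Ct was 24.78 in root, with 24.76, 27.31 and 27.59 in stem, leaf and spikelet, and the centred levels were 1.72, 0.94, -0.82 and -1.22. The root difference was 2.09, the mean of gaps of 0.78 to stem, 2.54 to leaf and 2.94 to spikelet. Untreated seedlings lay between 1.03 and 1.98 and so included the root level. On the −ΔCT scale root was at -8.24, with -7.91, -8.20 and -10.39 in stem, leaf and spikelet. There root was below stem and close to leaf, so the split was not seen.

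BdbZIP18 (bradi1g43900) had a Ct of 27.06 in root, with 27.16, 29.10 and 28.41 in stem, leaf and spikelet. The centred levels were -0.56, -1.46, -2.61 and -2.04, and the root difference was 1.48. After centring, root was above the other organs, by 0.90 from stem, and within the seedling range of -2.73 to -0.14. On the −ΔCT scale root was at -10.52, with -10.31, -9.99 and -11.21 in stem, leaf and spikelet, so below stem and leaf. On the centred scale all 5 of these TGA genes stayed at least 2-fold higher in root when stem, leaf or spikelet was left out in turn. The lowest value among those was 1.19, for BdbZIP18 without leaf.

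The other 9 TGA genes had root differences from -0.42 to 0.57 and were within 2-fold. BdbZIP36, BdbZIP81 and BdbZIP85 are all listed with the rice homologue OsbZIP08 (also spelled OsZIP08).

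The TGA list nearly coincided with a class of gene structure. The study sorted the genes into patterns a to h by where introns fall in the basic region and the hinge that joins it to the zipper, and 13 of the 14 TGA genes have pattern e, which no other gene has. Pattern e thus had 5 of 13 genes at least 2-fold higher and a median root difference of 0.34, beside 13.5% and -0.15 over all genes. Of the other patterns with more than 3 genes, pattern a had 4 of 23 higher and 2 lower, pattern b 2 of 24 higher and 2 lower, and pattern h 1 of 27 higher and 1 lower. Their medians were -0.10, -0.39 and -0.29.

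**Figure D4:**
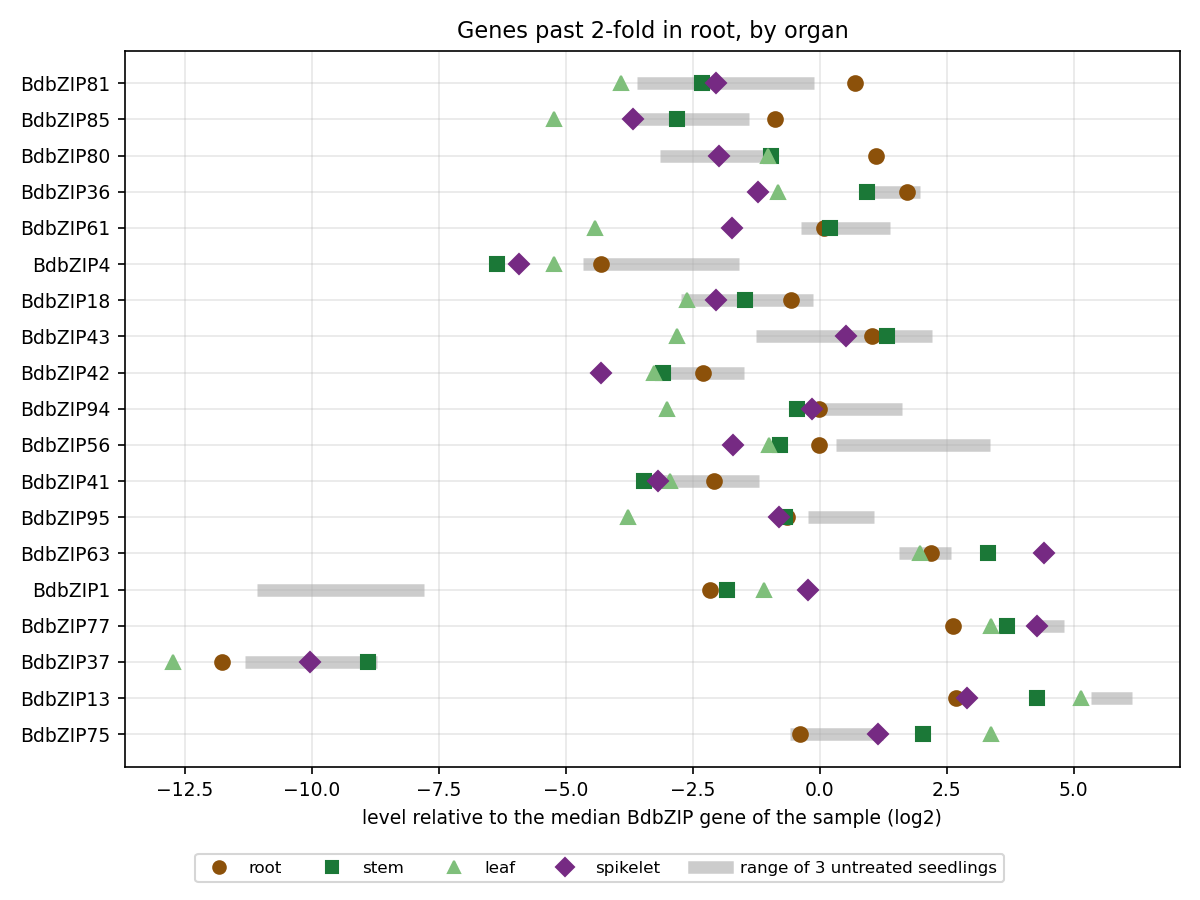
Centred level (log2, relative to the median BdbZIP gene of the sample) in root, stem, leaf and spikelet for the 19 genes at least 2-fold higher or lower in root, in order of the root difference, 1 point per organ. Grey bars span the 3 untreated seedling samples, and root lies above both the other organs and the seedlings in BdbZIP81, BdbZIP85 and BdbZIP80, and below both in BdbZIP77 and BdbZIP13. Stem and leaf also lie below the seedlings in BdbZIP77 and BdbZIP13, as does spikelet in BdbZIP13.

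Outside the TGA list, several genes past 2-fold had a low value in leaf. The list named for Arabidopsis bZIP34 and bZIP61, which act in pollen in that species, had a median root difference of 1.35 over 3 genes. The homologues listed for these 3 genes are from rice. BdbZIP61 (bradi3g09340) had a Ct of 26.42 in root, with 25.49, 30.91 and 28.09 in stem, leaf and spikelet, and BdbZIP43 (bradi2g50220) 25.47, 24.37, 29.30 and 25.86. In neither was root the highest after centring, since stem was above it by 0.13 and 0.30. Their root differences of 2.06 and 1.35 became 0.84 and 0.11 without leaf. The remaining gene, BdbZIP29, was at -0.28.

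The same held for BdbZIP94 (bradi5g14497) and BdbZIP95 (bradi5g14500) of the VIP1/PosF21 list, whose Arabidopsis relatives include a protein that enters the nucleus under hypo-osmotic stress. With identical primers, they count as 1 measurement. BdbZIP94 had a Ct of 26.51 in root, with 26.15, 29.50 and 26.52 in stem, leaf and spikelet. The root differences of 1.19 and 1.10 became 0.29 and 0.09 without leaf, and after centring root exceeded the next organ by 0.14 and 0.03 only. The 13 genes of the list had a median of 0.10, or -0.345 without leaf and -0.03 with 1 gene kept of each pair. The pair was its only call, beside 13.5% higher and 6.25% lower over all genes.

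BdbZIP42 (bradi2g45570) and BdbZIP41 (bradi2g45567), a further pair with identical primers, belong to the list of G-box binding factors (GBF), which bind a motif found in many light-regulated promoters. BdbZIP42 had a Ct of 28.80 in root, with 28.79, 29.75 and 30.67 in stem, leaf and spikelet, and BdbZIP41 28.57, 29.16, 29.44 and 29.55. After centring, root was the highest organ in both, by 0.79 and 0.88. The root difference of BdbZIP42 was 0.88 without spikelet. The other 4 GBF genes were lower or near level, from BdbZIP31 at -0.93 to -0.20, and the list had a median of -0.30. With 1 gene kept of each pair, 11 genes of 88 were at least 2-fold higher.

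BdbZIP4 (bradi1g12620), for which no homologue is listed, had a Ct of 30.80 in root, with 32.05, 31.71 and 32.28 in stem, leaf and spikelet. Root was highest after centring by 0.92, with a root difference of 1.53. Untreated seedlings had centred levels from -4.66 to -1.59, which includes the root level of -4.30. BdbZIP56, of the list related to the maize seed storage regulator Opaque2, completes the genes at least 2-fold higher, at 1.16 and 0.89 without spikelet, and is named outside the rule after its value was seen.

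Among the genes lower in root, BdbZIP75 (bradi4g02570), listed with a rice homologue of no stated function, had a Ct of 26.89 in root, with 23.66, 23.11 and 25.23 in stem, leaf and spikelet. The centred levels were -0.39, 2.04, 3.38 and 1.14, so that root was lowest and leaf highest, and the root difference was -2.58. Untreated seedlings lay between -0.58 and 1.24, which includes the root level, and root ranked 29 of 34 samples. The difference was between -3.10 and -1.98 when 1 of the other organs was left out.

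BdbZIP13 (bradi1g31700), also of the Opaque2-like list, had a Ct of 23.82 in root, with 21.43, 21.34 and 23.47 in stem, leaf and spikelet. Root and spikelet were both low, 0.22 apart after centring, against higher levels in stem and leaf. The root difference of -1.43 was -0.91 without leaf. Root had the lowest centred level of the 34 distinct samples, 2.68, while the 3 untreated seedlings lay between 5.35 and 6.15. Stem, leaf and spikelet, at 4.27, 5.15 and 2.90, were below the seedlings as well, so this gap was not particular to root. Within the 4 genes of this list 1 was at least 2-fold higher and 1 at least 2-fold lower.

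BdbZIP77 (bradi4g22130) had a Ct of 23.87 in root, with 22.02, 23.12 and 22.10 in stem, leaf and spikelet, and was also lowest in root of all 34 samples after centring. Its root difference was -1.14, and root lay 0.74 below the next organ. Stem and leaf, at 3.68 and 3.37, were also below the untreated seedlings, which lay between 4.18 and 4.82, and spikelet was at 4.27. BdbZIP1 (bradi1g04510), at -1.11, had centred levels of -2.16 in root, with -1.83, -1.09 and -0.22 in stem, leaf and spikelet, all of them above the untreated seedlings, which lay between -11.07 and -7.79. BdbZIP31 (bradi2g15940, -0.93), BdbZIP73 (bradi3g60870, -0.92), BdbZIP90 (bradi4g40540, -0.83) and BdbZIP76 (bradi4g04720, -0.77) were below all other organs but within 2-fold. In BdbZIP76 the gap to spikelet was 0.05. BdbZIP63 at -1.05 is named to complete the genes past 2-fold, and in it root lay within the range of the other organs after centring. Without spikelet BdbZIP77 was at -0.90, BdbZIP1 at -0.70 and BdbZIP63 at -0.46, so none of these 3 was then past 2-fold.

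BdbZIP37, a member of the abscisic acid list, was the 1 gene past 2-fold whose Ct reached 35 in an organ. Its Ct was 38.26 in root, with 34.59, 39.22 and 36.41 in stem, leaf and spikelet, with root inside the range of the others, and its root difference of -1.21 was -0.38 without stem, -2.30 without leaf and -0.95 without spikelet. Ct reached 35 in an organ in 3 genes only, BdbZIP10, BdbZIP37 and BdbZIP60. The abscisic acid list as a whole (ABI5/ABF, 13 genes) had a median of -0.38, which was -0.13 without leaf. It had 1 gene at least 2-fold lower and none higher, beside 6.25% and 13.5% over all genes, and root was below all other organs in 3, beside 30.2%.

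**Figure D5:**
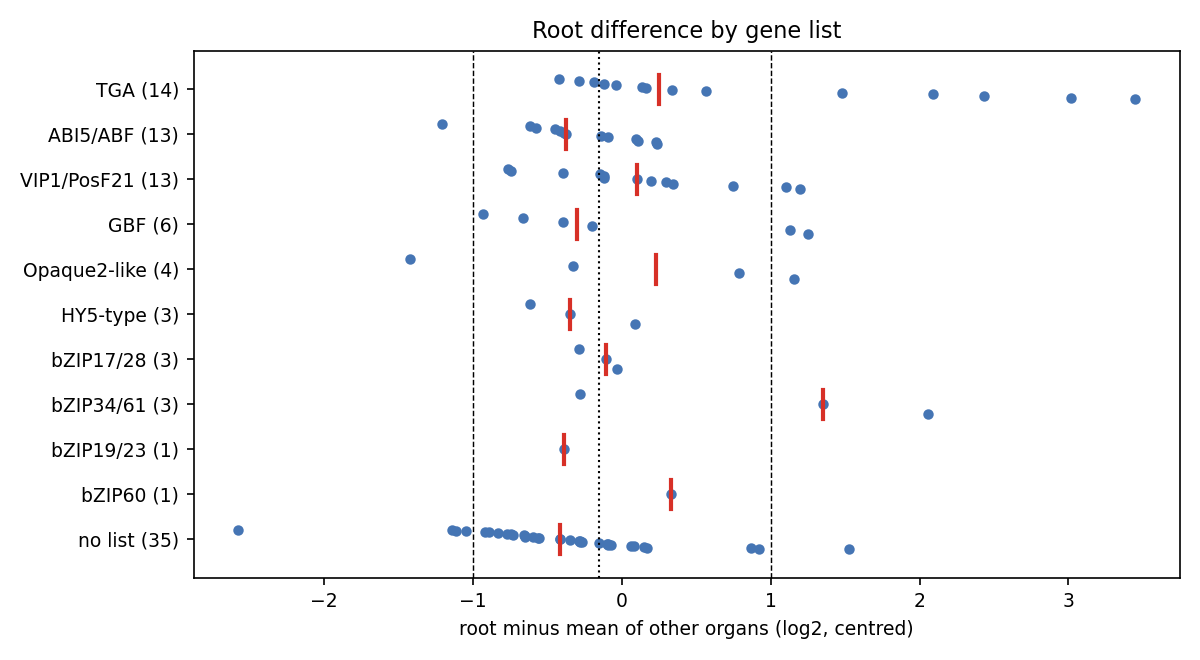
Root difference (log2, centred) of each BdbZIP gene by list, with the number of genes in brackets, 1 point per gene. Red bars are the medians of the lists, the dotted line is the median of all 96 genes (-0.15) and dashed lines mark 2-fold, and the 5 points farthest right in the TGA row are BdbZIP81, BdbZIP85, BdbZIP80, BdbZIP36 and BdbZIP18.

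In 4 further small lists no gene was past 2-fold on the centred scale. In the HY5-type list BdbZIP16 was at -0.62 with root below all other organs, BdbZIP60 at -0.35 and BdbZIP28 at 0.09. BdbZIP60 had a Ct of 33.63 or more in every organ and BdbZIP28 of 32.31 or more. The bZIP17/28 list takes its name from Arabidopsis membrane-bound factors released under salt or heat stress. In it BdbZIP8 was at -0.03 and BdbZIP9 at -0.11, both listed with AtbZIP49, and BdbZIP38, listed with AtbZIP28, at -0.29. BdbZIP15 is the gene of the list named for Arabidopsis bZIP60, whose transcript is spliced in the unfolded protein response, and was at 0.33 with root above all others by 0.15. BdbZIP11, listed with AtbZIP19, which acts in zinc deficiency, was at -0.39, with Ct of 24.15 in root, with 23.36, 23.69 and 23.29 in stem, leaf and spikelet. Each of these 8 genes was at least 2-fold lower on the −ΔCT scale, as were 81.2% of all genes, and 77 of all 96 were within 2-fold on the centred scale.

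The 35 genes in no list had a median root difference of -0.41, against -0.15 over all 96, with 1 gene at least 2-fold higher and 4 lower, beside 13.5% and 6.25% over all genes. In 28 of these 35 the difference was below 0, against 61 of all 96. Root was below all other organs in 16 of the 35 and above all in 3, beside 30.2% and 19.8% over all genes.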

How the data were processed

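The authors deposited Ct values, 1 per well and sample, for 96 BdbZIP genes and BdGAPD in 35 samples, from qPCR with SYBR Green. The qPCR was repeated, and how the repeats became 1 Ct is not given in the sources used here. No Ct of the 97 rows was missing. Depth is unknown, since Ct values do not count molecules.

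The authors also deposited normalized values, as a ratio to BdGAPD, and fold changes, a ratio of treated to control samples. The fold changes hold the authors' own comparisons and served only to join wells to genes, since all 28 of a well equalled those of 1 gene in the supplementary stress table, for 96 of 96 genes, with at most 1 shared with another gene. In root the normalized values equalled −ΔCT of the same well, within 0.1 on the log2 scale, in 7 genes, so they were used only as an alternative for counts and the median over all genes.

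Thresholds were 2-fold in either direction. Named were the 8 highest and 8 lowest root differences among genes with a Ct below 35 in all organs and root outside the range of the others, TGA genes past 2-fold, the small lists, same-primer pairs, genes past 2-fold with a Ct of 35 or more in an organ, and BdGAPD. Genes and lists were chosen with earlier results of these data known. Gene identifiers are those of the study's gene list, and 0 of them matched the reference gene table. PEG for the shorter time and H2O2 for the longer time had identical Ct columns and were counted as 1 sample. Alternatives changed the reference, the centring, the way organs were averaged and the genes or organs included. Calculations were tested on simulated Ct values. Python 3.11.15, numpy 2.4.6, pandas 2.3.3 and matplotlib 3.10.9 were used.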

Additional observations from a re-analysis of the deposited data

How the results depend on the processing

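The median −ΔCT root difference of -1.645 was -0.465 with raw Ct, 0.23 with the 10 least variable BdbZIP genes as reference, -1.28 with the median and -1.99 with the linear mean of the other organs, and between -2.03 and -1.08 when 1 organ was left out. The 78 genes at least 2-fold lower on that scale became 15 with raw Ct and 2 with those 10 genes, and the 2 higher became 8 and 17, or between 2 and 4 when 1 organ was left out. On the centred scale, centring on the 10 genes gave 2 genes lower in place of 6 and 17 higher in place of 13. Root was then lowest in 9 genes in place of 29 and highest in 29 in place of 19. The 13 higher genes became 8 with the median of the other organs, and of them 12 stayed past 2-fold without stem, 9 without leaf and 11 without spikelet, as did 5, 5 and 2 of the 6 lower genes. The seedling SD of 1.84 was between 0.85, without CK3, and 2.24, without CK2. With only genes with a Ct below 35 it was 1.45, and BdbZIP4 at 1.53 and BdbZIP18 at 1.48 lay beyond that value as well. No named gene past 2-fold changed sign under the alternatives run. No paired analysis was possible because each organ has 1 sample. The precision is limited by the single sample per organ.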
